A study of Mus musculus with 6 samples.

Results

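miR-155, miR-147, miR-132 and miR-212 are miRNAs that rise when cells are activated, and they were followed here in mouse lung with and without an induced interleukin 13 transgene. They were chosen by name, as the probe sets mmu-miR-155_st, mmu-miR-147_st, mmu-miR-132_st and mmu-miR-212_st, 4 of the 609 mouse probe sets of an array that holds 7625 in all, and 21 probe sets carrying the same names for other mammals were used beside them. RNA came from the left upper lobe of 6 C57BL/6 mice aged 6 to 10 weeks, of which 2 were CC10-rtTA-IL13 transgenic (TG) and 4 wildtype (WT). Every mouse, WT included, drank doxycycline at 2 mg/mL for 7 days. The CC10 promoter drives the doxycycline-dependent transactivator rtTA in airway club cells, and interleukin 13 is a cytokine of type 2, allergic inflammation. No mice with rtTA alone were among the samples, so rtTA and interleukin 13 cannot be told apart. The labels call the samples biological replicates.

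A miRNA pairs with target messages mainly through its seed, bases 2 to 8 from the 5′ end, and lowers their translation and stability. miR-155 is cut from the noncoding transcript of Mir155hg, once known as Bic, and is induced in macrophages, B cells and T cells on stimulation. In mice it takes part in germinal centre responses and in allergic airway inflammation. miR-147 is induced in mouse macrophages by Toll-like receptor ligands, and in RefSeq its gene overlaps the protein-coding gene AA467197, also called Nmes1. miR-132 and miR-212 are neighbouring genes whose shared primary transcript is induced by the transcription factor CREB, best studied in neurons. miR-132 is also induced in endothelium and in myeloid cells.

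The mature strands show which of these miRNAs could address the same targets. They are RefSeq sequences of build GRCm38.p6, with miR-155 on chromosome 16 and miR-132 and miR-212 on chromosome 11, and the seed is in capitals. The strands shown are the main ones, which a name without an arm or a star denoted in older nomenclature, since the probe sequences themselves were not used here.
miR-155-5p: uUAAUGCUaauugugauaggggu
miR-132-3p: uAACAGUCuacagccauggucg
miR-212-3p: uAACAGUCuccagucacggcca
miR-132 and miR-212 have the same seed, and no other mature mouse miRNA in the RefSeq table shares it. Their first 9 bases are identical, and 17 of 22 positions match in all. Counted from the 5′ end, with miR-132 first and miR-212 second, the differences are A10C, C14U, U17C, U20C and G22A. The seed of miR-155 occurs in no other mature mouse miRNA of the table. The sequence of miR-147-3p was not used here.

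miR-155 and miR-132 were detected in TG lungs and had higher mean levels there than in WT lungs, but neither difference passed the test over all miRNAs. miR-147 was detected on no array and miR-212 on 1, a WT array. Values are log2 signals, and a probe set was called detected on an array when it lay above 95% of the plant probe sets read there, which mouse RNA should not fill. This limit was 4.22 and 4.25 on the TG arrays and between 4.27 and 4.33 on the WT arrays. Of the 609 mouse probe sets, 197 were detected on 2 or more arrays and tested with limma, with miR-155 and miR-132 among them. miR-155 was detected on 2 TG and 2 WT arrays. miR-132 was detected on 2 TG arrays and 1 WT array, so it met this filter only through the group where it was higher.

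miR-155 read 5.03 and 4.99 in TG replicates 1 and 2. In WT replicates 1 to 4 it read 4.34, 4.77, 4.22 and 3.86. The groups did not overlap, and the lowest TG value was 0.21 above the highest WT value. It was detected on both TG arrays but on only 2 of 4 WT arrays, where replicate 1 was just 0.033 above its limit. Set against the plant probe sets of the same array, miR-155 exceeded 99.8% of them on each TG array. In WT it exceeded 95.8%, 99.4%, 92.5% and 13.1% for replicates 1 to 4, so that WT replicate 4 was well inside the background. The group means were 5.01 ± 0.03 (SD, n = 2) in TG and 4.30 ± 0.38 (SD, n = 4) in WT. The difference, TG minus WT, was 0.71 ± 0.29 (SE) with a 95% interval of 0.05 to 1.38, or 1.64-fold. With WT values under the limit raised to it, the fold was 1.50. limma with Benjamini-Hochberg adjustment gave an adjusted p of 0.231 (unadjusted 0.0388), and the exact permutation test gave p = 0.133, where 0.0667 is the smallest that 15 splits allow.

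miR-132 read 5.28 and 5.15 in TG replicates 1 and 2. In WT it read 3.93, 5.12, 4.18 and 4.05 for replicates 1 to 4. WT replicate 2 thus stood 0.028 below the lower TG array, while the other 3 WT arrays were below their detection limits. That margin alone kept the groups from overlapping. Against the plant probe sets, miR-132 exceeded 100% and 99.9% in TG and 99.8% in WT replicate 2. It exceeded 33.2%, 89.9% and 65.6% in WT replicates 1, 3 and 4. The means were 5.21 ± 0.09 (SD, n = 2) in TG and 4.32 ± 0.55 (SD, n = 4) in WT. The difference was 0.89 ± 0.36 (SE) with a 95% interval of 0.06 to 1.72, or 1.86-fold, and 1.63-fold with the limit as a floor. The adjusted p by limma was 0.231 (unadjusted 0.0378), and the exact permutation p was 0.133.

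**Figure D1:**
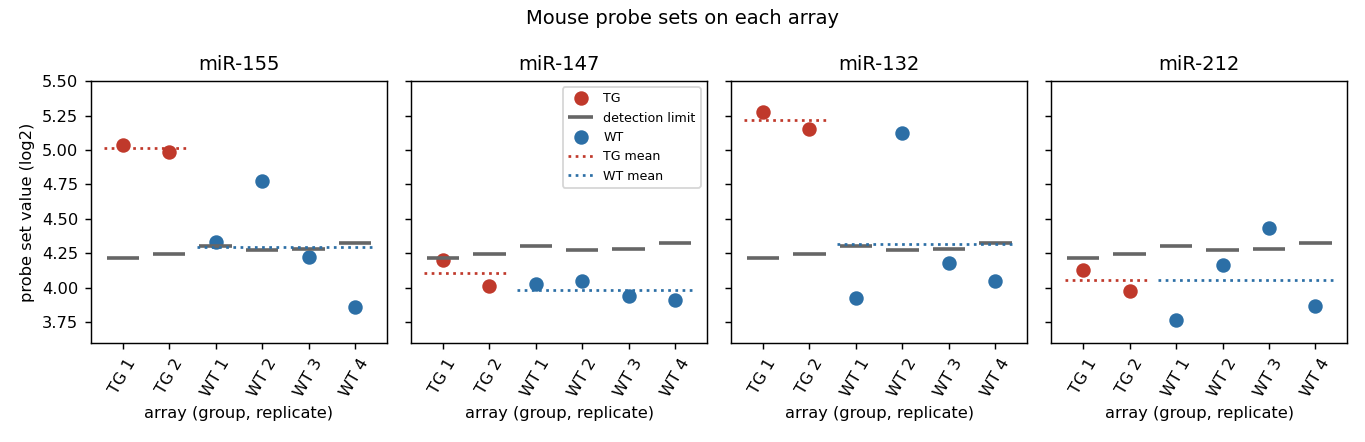
Log2 value of each mouse probe set on each array, TG in red and WT in blue, with the detection limit of each array as a grey bar and group means as dotted lines. miR-155 and miR-132 are above the limit on both TG arrays, miR-132 is nearly as high in WT replicate 2 (5.12) as in TG, and miR-147 and miR-212 stay near the limits.

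miR-147 was detected on 0 of 6 arrays. It read 4.20 and 4.01 in TG and 4.03, 4.05, 3.94 and 3.92 in WT replicates 1 to 4. TG replicate 1 came nearest to detection, at 0.015 below its limit. The groups overlapped, since TG replicate 2 was below both of the higher WT arrays. No fold is given for a miRNA in the background of both groups. When all 609 mouse probe sets were tested without a detection filter, the measured difference was 0.12 ± 0.10 (SE), with a 95% interval of -0.11 to 0.35 and an adjusted p of 0.773 by limma. That fit called 0.164% of the 609 as higher in TG, and in 14.3% of them the TG arrays exceeded all WT arrays, which held for neither miR-147 nor miR-212. In that background such an interval limits the signal and not the RNA.

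miR-212 read 4.13 and 3.98 in TG, below the limit on both arrays. In WT it read 3.76, 4.17, 4.44 and 3.87 for replicates 1 to 4, and only replicate 3 was above its limit, by 0.15. The TG values lay inside the WT range. Without a detection filter the measured difference was -0.0044 ± 0.20 (SE), with a 95% interval of -0.49 to 0.48 and an adjusted p of 0.999 by limma. The highest array differed between the partners of the shared transcript, WT replicate 3 for miR-212 and TG replicate 1 for miR-132.

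Among the tested mouse miRNAs, 6 of 197 passed as higher in TG, which is 3.05%, and 0 as lower (limma, with 34 higher and 5 lower at an unadjusted p under 0.05). Of miR-155 and miR-132, 0 passed. At an unadjusted p under 0.05 both were higher in TG, as were 17.3% of the tested probe sets. Both also had TG arrays above all WT arrays, as did 29.4% of the tested probe sets. The median difference of all 197 was 0.21. Relative to it, miR-155 was 0.50 and miR-132 was 0.68 higher. The difference of miR-155 was larger than 78.2% of those tested, and that of miR-132 larger than 84.8%. Setting the tested median of each array to 0 lowered every difference by 0.44 and left 0.28 ± 0.26 (SE) for miR-155 and 0.46 ± 0.28 for miR-132.

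**Figure D2:**
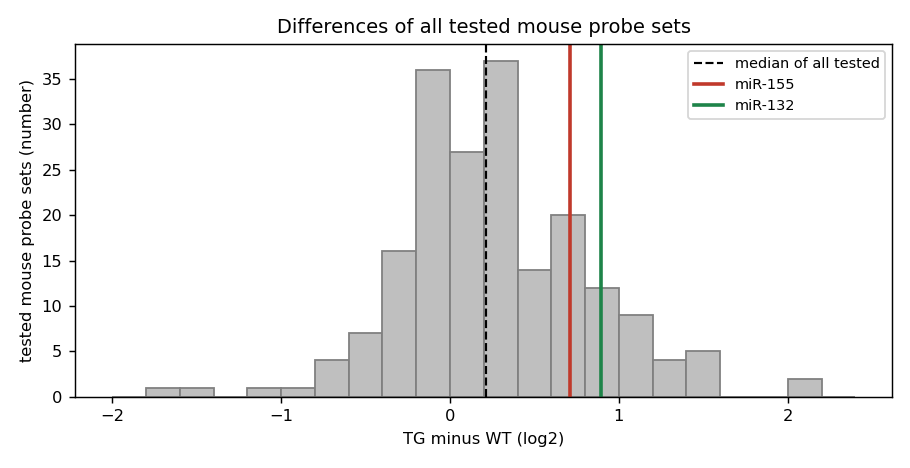
Number of tested mouse probe sets by their TG minus WT difference (log2), with the median of all 197 as a dashed line at 0.21. miR-155 at 0.71 and miR-132 at 0.89 lie on the upper shoulder, with larger differences to their right.

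On the probe sets for other mammals, only miR-132 of the 4 names was detected on 2 or more arrays. All 6 probe sets named miR-132 for other mammals were detected on 2 or more arrays, and all 6 had higher TG means, the log2 differences running from 0.29 to 0.63. In 5 of the 6 both TG arrays were above all WT arrays, the opossum probe set being the exception. The human probe set read 4.80 and 4.81 in TG and 3.95, 4.16, 4.39 and 4.41 in WT replicates 1 to 4. The rat probe set read 5.07 and 4.79 in TG and 4.54, 4.25, 4.36 and 4.07 in WT. WT replicate 2, so high on the mouse probe set, was the highest WT array on 3 of these 6 probe sets and was below both TG arrays on the human and rat ones. Averaged over the mouse probe set and these 6, miR-132 read 4.87 and 4.85 in TG and 4.08, 4.54, 4.39 and 4.16 in WT. The averaged groups lay 0.31 apart at their nearest arrays. The difference of this average was 0.57 ± 0.17 (SE), with an adjusted p of 0.105 by limma when every miRNA was averaged in the same way and an exact permutation p of 0.0667, the smallest possible. These probe sets were read on the same 6 arrays and add no mice.

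None of the 3 probe sets named miR-155 for other mammals was detected on any array. They read between 3.61 and 4.24, and their differences ran from -0.07 to 0.14. The miR-155 signal therefore rests on the mouse probe set alone, and averaging it with the other 3 gave 0.21 ± 0.14 (SE). Whether these 3 probe sets match the mouse strand in full was not tested, as the probe sequences were not given. For miR-147, 0 of 7 such probe sets were detected on 2 or more arrays, with differences from -0.17 to 0.18. The human counterpart of mouse miR-147 is named miR-147b. The probe sets named miR-147 for human and other primates, all of the 7 but the rat one, may therefore read another miRNA. The rat probe set, at 0.18, was detected on 1 array. For miR-212 it was 0 of 5, with differences from -0.34 to 0.21, 3 of them positive.

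**Figure D3:**
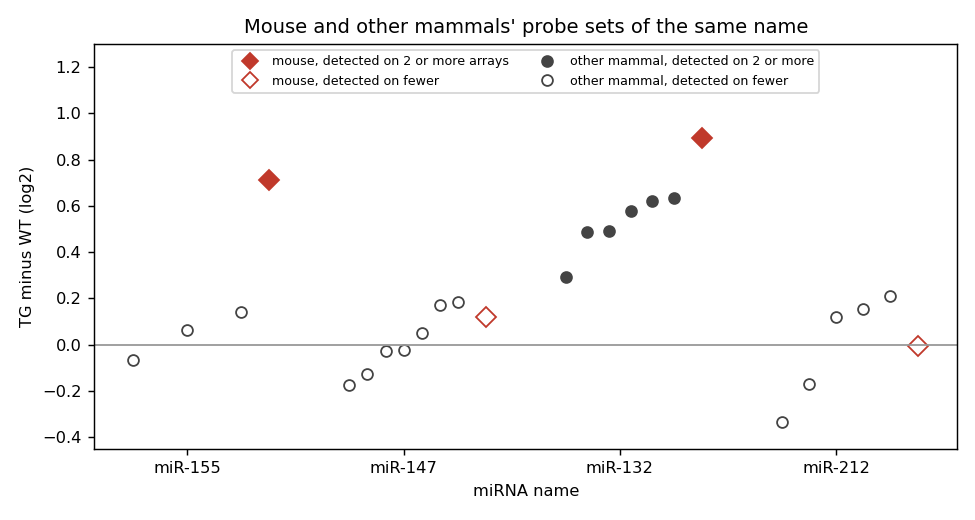
TG minus WT (log2) for the mouse probe set (red diamonds) and each other mammal's probe set (grey circles) of the 4 names, filled where detected on 2 or more arrays. All 6 circles of miR-132 are filled and above 0, from 0.29 to 0.63, whereas no circle of the other 3 names is filled.

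Levels of miR-155 followed how many mouse miRNAs an array detected. With the 4 miRNAs described here left out, the numbers of detected mouse probe sets were 199 and 197 in TG and 148, 170, 145 and 132 in WT replicates 1 to 4. Sorted by this count, the arrays were in the same order as when sorted by miR-155, a match found for 4 of the 197 tested probe sets (2.03%). miR-132 did not keep the order among WT replicates 1, 3 and 4, but its 3 highest arrays, both TG arrays and WT replicate 2, were those with the highest counts. WT replicate 2 was the highest WT array for 83 of the 197 probe sets (42.1%). With the count as a covariate, the differences turned to -0.45 ± 0.49 (SE) for miR-155 and -0.59 ± 0.57 for miR-132, neither past the threshold. The count and the genotype had a Pearson correlation of 0.901 over the 6 arrays, so that this fit hardly tells them apart.

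**Figure D4:**
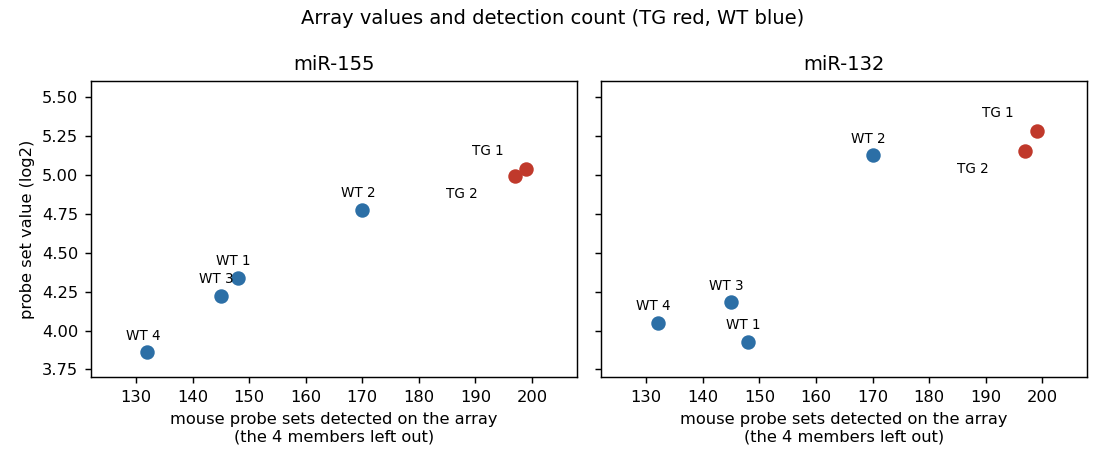
Log2 value of miR-155 (left) and miR-132 (right) against the number of mouse probe sets detected on each array, TG in red and WT in blue. miR-155 climbs with the count over all 6 arrays, from 3.86 at 132 to 5.03 at 199, and miR-132 is high on the 3 arrays with 170 or more.

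Leaving out WT replicate 2, the array with its highest WT value, brought miR-132 past the threshold. Without that array its difference was 1.16 ± 0.23 (SE) with an adjusted p of 0.0177 by limma. That fit called 12.2% of the tested probe sets higher in TG. Leaving out any other single WT array did not bring miR-132 past the threshold. miR-155 without WT replicate 2 was at 0.87 ± 0.25 with an adjusted p of 0.0556. With array weights, which gave WT replicates 2 and 4 the lowest weights, 0.546 and 0.419, both passed, miR-132 at 0.96 ± 0.26 with an adjusted p of 0.0313 and miR-155 at 0.71 ± 0.22 with an adjusted p of 0.0490. That fit called 15.2% of the tested probe sets higher in TG. The highest probe set value was 11.50 on WT replicate 1 and 11.42 on WT replicate 4, against 13.13 to 13.36 on the other arrays. With only WT replicates 2 and 3, which leaves those arrays out, the differences were 0.56 ± 0.34 for miR-132 and 0.51 ± 0.28 for miR-155. Both were smaller than with all arrays, and neither passed. The cause of the lower maxima was not tested.

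**Figure D5:**
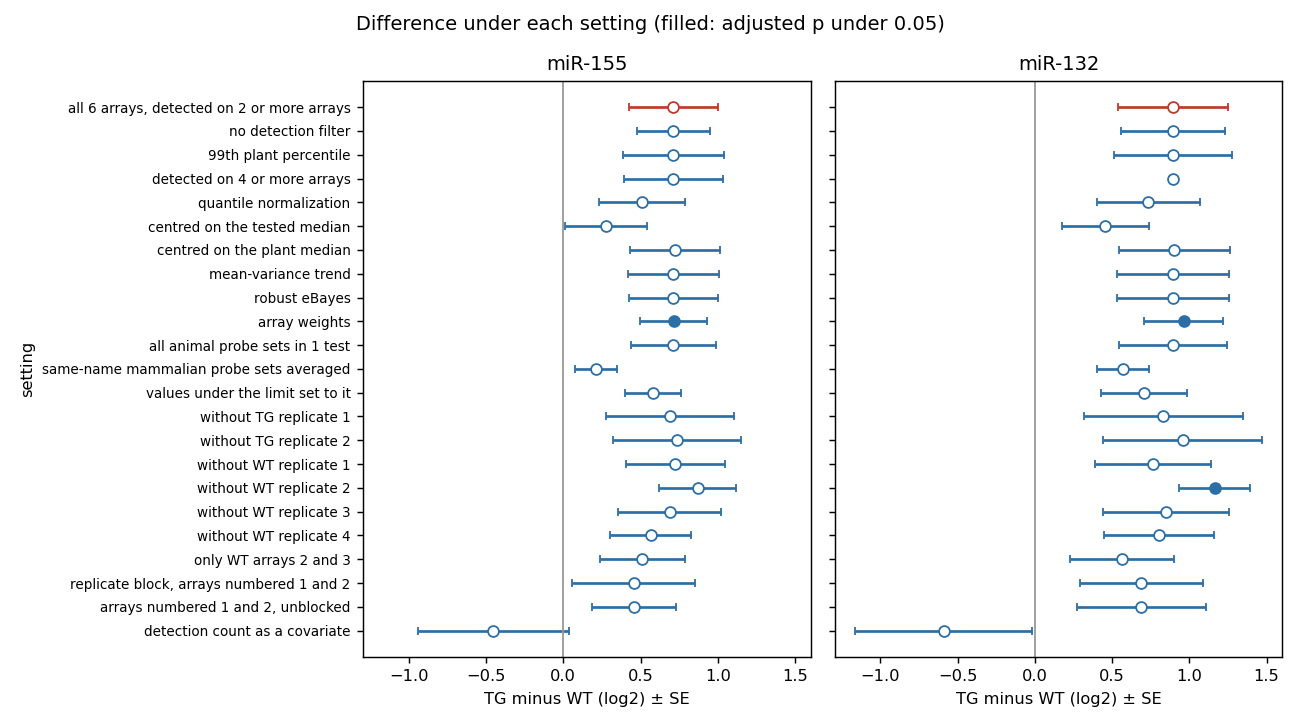
TG minus WT (log2, bars show the SE) of miR-155 and miR-132 under the reported setting (red) and each alternative (blue), filled where the adjusted p was under 0.05. Most settings lie above 0 and are open, the array weights are filled for both, leaving out WT replicate 2 is filled for miR-132, and the covariate turns both below 0. miR-132 has no bar where it was detected on too few arrays to be tested.

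Other miRNAs known to respond to inflammation were taken as a list of 8, of which 7 were tested and miR-9 was detected on no array. The list was chosen with earlier results of these data known, so its shares beside those of all tested probe sets only describe it. All 7 had positive differences, as had 66.0% of all tested probe sets, with a median of 0.72 against 0.21 for all tested. In 6 of the 7 the TG arrays exceeded all WT arrays, against 29.4% of all tested. Of the 7, 1 passed, against 3.05% of all tested. It was miR-146b, a feedback inhibitor of Toll-like receptor signalling, at 1.51 ± 0.29 (SE) with an adjusted p of 0.0428 by limma. This call was lost without the detection filter, at an adjusted p of 0.0646, and in every setting that called 0 probe sets. miR-146b was detected on both TG arrays and on 1 of 4 WT arrays, too few to be tested where detection on 4 or more arrays was required. miR-21 was at 1.01 ± 0.26, miR-31 at 0.98 ± 0.43, and miR-146a at 0.71 ± 0.29. miR-221 was at 0.72 ± 0.25, miR-222, its cluster partner, at 0.30 ± 0.28, and miR-187 at 0.52 ± 0.36.

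The probe sets with the most similar profile were found by the root mean square difference over the 6 arrays, after subtracting each probe set's own mean. For miR-155 these were miR-99b at 0.13, miR-501-3p at 0.16 and miR-191 at 0.16, with a median of 0.43 over all tested probe sets. For miR-132 they were miR-106b-star, miR-28-star and miR-532-5p, all at 0.19, with a median of 0.53. miR-132 ranked 21 by nearness to miR-155, and miR-155 ranked 11 by nearness to miR-132. None of these 6 neighbours passed the test, with differences from 0.76 to 1.18. The group difference was part of the profile, so differences near those of miR-155 and miR-132 follow from the choice.

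Markers of cells that could carry these miRNAs varied as well. Of 6 leukocyte miRNAs, miR-142-3p and miR-142-5p, which mark blood cells broadly, were detected on 0 arrays, and 4 were tested, none past the threshold. Summed over the list, the linear signal was 399.8 to 473.1 in TG and 244.3 to 340.2 in WT. In this list miR-342-3p had the largest difference, 1.14 ± 0.29 (SE), and the highest signal on every array, so it weighed most in the sum. Of the 4 tested, only miR-342-3p had both TG arrays above all WT arrays. The myeloid miR-223 was detected on 0 TG arrays and on 2 of 4 WT arrays. The part of such cells in the values of miR-155 and miR-132 was not tested, and in whole lobes more cells of a type and more RNA per cell cannot be told apart. All 5 epithelial miRNAs of the miR-200 family and the endothelial miR-126-3p were detected on 2 or more arrays, while miR-126-5p was detected on 0. The epithelial sum was also higher in TG, at 1122 to 1189 against 743.0 to 968.3 in WT. miR-200c, at 0.54 ± 0.24 (SE), had the highest signal of this list on every array and weighed most in the sum. Of the 5 epithelial miRNAs, 3 had positive differences, and only miR-200c had both TG arrays above all WT arrays. miR-200a was at -0.09 and miR-200b at -0.03. The endothelial sum was 645.9 to 662.7 in TG and 724.9 to 2349 in WT. Of 4 neuronal miRNAs, miR-124 and miR-9 were detected on 0 arrays, and miR-128 and miR-138 on 1 TG array each. The liver miRNA miR-122 was detected on 2 arrays. Of 4 striated muscle miRNAs, miR-133b was detected on 2 arrays, miR-1 and miR-133a on 1 each and miR-206 on 0.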

How the data were processed

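MicroRNA was measured with 1 array per sample in 2 TG and 4 WT lungs. Per the labels' protocols, TRIzol total RNA was biotin-labelled by the Affymetrix procedure. The authors' deposited values were read as log2, which is inferred from their range of 3.37 to 13.36. The sources used here do not give summarization, normalization, probe sequences or miRBase version. Whether the arrays had been scaled to each other is unknown. No batch was given, and 0 columns were left unused.

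A probe set counted as detected above the 95th percentile of the array's 1631 plant probe sets, and mouse probe sets detected on 2 or more arrays were tested. TG was compared with WT by the lmFit and eBayes functions of limma 3.58.1 under R 4.3.3 (two-sided, no covariate), and p-values were Benjamini-Hochberg adjusted over all 197 tested mouse probe sets with a threshold of 0.05. The script was tested on simulated data. Single values were also tested by exact two-sided permutation over the 15 splits of the arrays. Standard errors and 95% intervals come from limma and are not adjusted for the number of tests. Alternatives were other detection filters, normalizations, centrings and variance models, array weights, averaging of same-name probe sets, a joint test of all animal probe sets, the detection limit as a floor, arrays left out, and the replicate number as a block. The number of detected probe sets as a covariate was added after seeing the data. The miRNAs, the lists and the tests were chosen with earlier results of these data known. The miRNAs named are the 4 described, their same-name and star-strand probe sets, the 3 tested probe sets nearest to each tested one, and the tested members of the list of inflammation-responsive miRNAs. Members of the marker lists are named as well, in part after their values were seen. Mature sequences and gene neighbours come from RefSeq tables of build GRCm38.p6, which held miRNA genes for all 4 names. Since no build is named for the array, coordinates were left out.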

Additional observations from a re-analysis of the deposited data

How the results depend on the processing

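The count of mouse probe sets passing the test, 6 with all arrays, changed with most settings. It was 1 without a detection filter, 2 with the 99th plant percentile, 1 with detection on 4 or more arrays, 2 with centring on the tested median, 33 with array weights and 14 with same-name probe sets averaged. A joint test of 1666 probe sets of all animals called 14 of those. limma called 0 with quantile normalization (33 at an unadjusted p under 0.05), 0 with only WT replicates 2 and 3 (30) and 0 with the number of detected probe sets as a covariate (28), a setting chosen after seeing the data. Leaving out 1 array gave 0 to 27. The count was 0 without either TG array or WT replicate 1 or 3, with 17 to 33 at an unadjusted p under 0.05, and 27 without WT replicate 2. Where 1 TG array was left, it was assumed to vary like the WT arrays.

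miR-155 ran from -0.45 with the covariate to 0.87 without WT replicate 2, was positive in 21 of 22 alternatives and passed in 1, the array weights at 0.71. miR-132 ran from -0.59 with the covariate to 1.16, was positive in 21 of 22, and passed in 2, the array weights at 0.96 and without WT replicate 2. Leaving out 1 array gave 0.57 to 0.87 for miR-155 and 0.76 to 1.16 for miR-132. The centring moved the untested pair, to -0.32 for miR-147 and -0.44 for miR-212. Averaging with the same-name probe sets, which may not all be counterparts of the mouse miRNA, brought miR-147 to 0.023. Leaving out 1 array gave 0.027 to 0.22 for miR-147 and -0.10 to 0.12 for miR-212. The causes of these changes were not tested.

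The labels number the replicates from 1 in each group, but nothing says that a number marks a shared litter or day. Deviations from the group means correlated at -0.21 for number 1 and 0.074 for number 2 over the 197 probe sets. Each value rests on 1 pair of arrays, so they cannot tell whether more than the number is shared. With the replicate block on the arrays numbered 1 and 2, 12 probe sets passed, miR-155 was at 0.46 ± 0.40 (SE) and miR-132 at 0.69 ± 0.40, and neither passed. The SE was the same for both, since this fit used a spread pooled over all probe sets and not each miRNA's own. The 12 calls rest on that pooled spread. The same arrays without the block gave the same differences and 0 calls, with 30 at an unadjusted p under 0.05. The signal of miR-147, in the background on all 6 arrays, and that of miR-212, on 5 of 6, limit what these values say of their RNA.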

Other observations

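The star strands of these hairpins had human probe sets for miR-155-star and miR-132-star, and both were detected on 0 arrays, with measured differences of -0.14 and -0.10. The human and macaque probe sets named miR-147b, the name of the human counterpart of mouse miR-147, were detected on 0 arrays as well, with differences of 0.10 and 0.06. Beyond mammals, all 4 fish and frog probe sets named miR-132 were detected on 2 or more arrays and were higher in TG, by 0.39 to 0.77, with both TG arrays above all WT arrays in 2 of the 4. The 4 fish and frog probe sets named miR-212 were detected on 0 arrays, with differences from -0.11 to -0.02.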
